A study of Mus musculus with 18 samples.

Results

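The levels of 10 transcripts that mark kidney endothelium were followed through 18 mouse kidneys: Pecam1, Cdh5, Emcn, Kdr, Flt1, Tek, Ehd3, Plvap, Vwf and Egfl7. They were chosen by name, as genes of endothelium in general, of the glomerular tuft and of the vessels around the tubules. Earlier results of these data were known when they were chosen. These are 10 of the 55385 genes in the deposited tables, and all 10 were among the 17575 genes that passed the filter on low counts. PolyA RNA from whole kidney of untreated adult mice was sequenced, with 6 animals in each of 3 genotypes and 3 males and 3 females in each. Dp16 2xIFNRs mice, aged 17.7 to 18.0 weeks, have the Dp16 duplication with the dose of the interferon receptor genes normalized. Dp16 mice, aged 17.1 to 18.0 weeks, have a duplicated stretch of mouse chromosome 16 that matches much of human chromosome 21 and serve as a model of trisomy 21. Wild-type mice, aged 17.1 to 18.0 weeks, were C57BL/6J. The duplication is thus shared by both Dp16 groups, and none of the 10 markers lies in it.

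Endothelial cells line every vessel of the kidney and differ along its circulation. Glomerular capillaries are perforated by open pores and filter the plasma, whereas the capillaries around the tubules carry pores closed by diaphragms built from the Plvap protein. Podocytes and tubules release VEGF-A, which acts on endothelial cells through Kdr, while Flt1 binds the same ligand and limits its action. Angiopoietins act through Tek on the stability of the vessel wall. ETS-family transcription factors, among them Erg, bind sites with a GGAA core and take part in setting the endothelial programme. Erg lies on chromosome 16 from 95359169 to 95586593 (GRCm38) and is therefore within the Dp16 duplication, which runs from Lipi to Zbtb21.

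The 250 bases before the transcription start of Kdr, Flt1, Emcn and Egfl7 are shown because Kdr and Flt1 had the closest covariation of any pair of markers, and because Emcn and Egfl7 held the longer ETS motifs. RefSeq promoters on GRCm38 were at hand for 6 of the 10 markers, these 4 with Tek and Ehd3. Capitals mark each GGAA, or TTCC where the core is on the other strand, and each sequence reads 5′ to 3′ in the direction of the gene. The Kdr window is chr5:75978456-75978705 on the minus strand, the Flt1 window chr5:147726012-147726261 on the minus strand, the Emcn window chr3:137340828-137341077 on the plus strand and the first Egfl7 window chr2:26580833-26581082 on the plus strand.
Kdr: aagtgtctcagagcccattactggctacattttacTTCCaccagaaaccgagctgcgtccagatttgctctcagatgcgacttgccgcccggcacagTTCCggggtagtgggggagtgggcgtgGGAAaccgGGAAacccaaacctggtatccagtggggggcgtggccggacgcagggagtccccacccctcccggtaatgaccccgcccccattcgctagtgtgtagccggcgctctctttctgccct
Flt1: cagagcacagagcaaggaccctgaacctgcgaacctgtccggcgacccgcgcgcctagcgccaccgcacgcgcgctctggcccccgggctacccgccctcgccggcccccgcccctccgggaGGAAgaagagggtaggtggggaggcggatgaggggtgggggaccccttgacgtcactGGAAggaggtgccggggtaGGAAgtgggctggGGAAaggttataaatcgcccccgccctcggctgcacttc
Emcn: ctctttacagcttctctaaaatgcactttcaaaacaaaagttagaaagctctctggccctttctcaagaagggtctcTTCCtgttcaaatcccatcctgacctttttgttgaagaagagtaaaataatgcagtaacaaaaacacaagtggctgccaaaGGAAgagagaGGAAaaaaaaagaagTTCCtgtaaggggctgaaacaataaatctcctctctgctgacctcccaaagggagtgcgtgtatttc
Egfl7: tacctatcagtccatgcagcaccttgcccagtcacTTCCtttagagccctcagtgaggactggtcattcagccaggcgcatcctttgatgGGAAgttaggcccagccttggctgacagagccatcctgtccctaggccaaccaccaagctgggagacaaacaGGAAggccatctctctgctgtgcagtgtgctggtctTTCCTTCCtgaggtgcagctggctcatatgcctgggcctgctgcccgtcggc
GGAA was present on one strand or the other in 6 of 6 markers and in 93.4% of 32544 RefSeq promoter windows of this length, so it is common to nearly all genes. The longer ETS site CAGGAAG was present in 2 of 6, Egfl7 and Emcn, and in 10.8% of all windows. The site CCGGAAG was in 0 of 6 and in 6.95% of all windows. The composite AACAGGAA, which joins a forkhead and an ETS site and overlaps CAGGAAG where both occur, was in the same 2 markers and in 2.26% of all windows. A marker was counted if any of its windows held the motif, and Egfl7 has several windows. Counts of markers and shares of single windows are therefore unlike measures. A match of letters is a description of the window and shows no binding.

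Positions of the genes are those of GENCODE M21 on GRCm38. Pecam1 lies on chromosome 11 from 106654217 to 106750628, Cdh5 on chromosome 8 from 104101625 to 104144511 and Emcn on chromosome 3 from 137341067 to 137432185. The receptor genes are Kdr, on chromosome 5 from 75932827 to 75978458, Flt1, on chromosome 5 from 147561604 to 147726011, and Tek, on chromosome 4 from 94739289 to 94874976. Ehd3 lies on chromosome 17 from 73804134 to 73832094, Plvap on chromosome 8 from 71497765 to 71511752, Vwf on chromosome 6 from 125546774 to 125686679 and Egfl7 on chromosome 2 from 26580014 to 26593120.

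Library totals ranged from 42157790 to 57814587 gene counts, and mitochondrial transcripts took 6.34% to 10.9% of a library. Counts of the markers per library ran between 189 for Vwf and 20178 for Plvap, so counting error was largest for Vwf. Labels do not say whether any animals were littermates, and each library is taken as 1 animal. The descriptions end in a number that 11 of the 18 libraries share with another, 5 numbers in all, each found in more than 1 genotype, and the labels do not say what it stands for. When limma-voom took it as a random block, the markers called were 0 of 10 in each genotype comparison and 8 of 10 by sex. Of all genes, 5.64% were called in Dp16 2xIFNRs against wild-type and 4.71% in Dp16 against wild-type. In Dp16 2xIFNRs against Dp16 the share was 0.0171%, and by sex it was 37.6%. In whole kidney, fewer endothelial cells and less RNA per endothelial cell cannot be told apart in any of the values that follow.

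Expressed per length of transcript, Plvap was the most abundant marker, at 134.7 ± 26.0 RPKM (counts scaled by transcript length and library size, mean ± SD, n = 18 kidneys). Emcn, the sialomucin endomucin of capillaries and veins, followed at 29.8 ± 4.61 RPKM, and Pecam1 at 20.1 ± 3.72 RPKM. Plvap exceeded Emcn in 18 of 18 kidneys, by a mean ratio of 4.49, and Emcn exceeded Pecam1 in 18 of 18. Cdh5 at 14.7 ± 2.75 RPKM, Ehd3 at 14.01 ± 2.26 RPKM, Kdr at 13.5 ± 2.34 RPKM and Egfl7 at 12.6 ± 2.09 RPKM lay close together. Their order was not stable: Cdh5 exceeded Ehd3 in 12 of 18 kidneys, Ehd3 exceeded Kdr in 8 and Kdr exceeded Egfl7 in 14. Tek at 9.55 ± 1.82 RPKM and Flt1 at 7.11 ± 1.31 RPKM were lower, each below the gene before it in 18 of 18 kidneys. Vwf was the least abundant at 0.692 ± 0.225 RPKM, with Flt1 10.6 times as high on average.

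**Figure D1:**
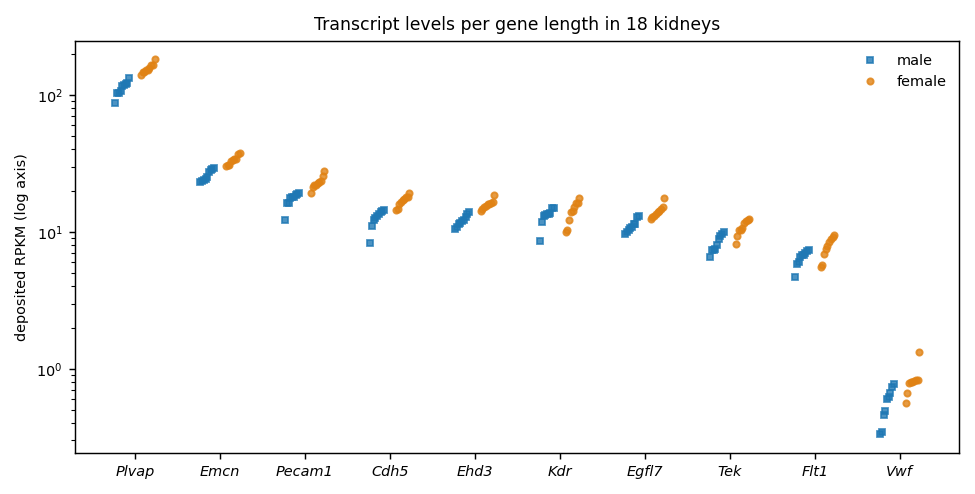
Deposited RPKM (log axis) of each marker in the 18 kidneys, 1 point per kidney, with males as squares left of females as circles. Plvap stands above the other markers and Vwf below them in every kidney, and in most markers the male points sit lower than the female ones.

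The first question was whether the duplication, with or without the extra dose of interferon receptors, altered the level of endothelial transcripts. With edgeR's quasi-likelihood test and Benjamini-Hochberg adjustment at 0.05, 0 of 10 markers were called in Dp16 2xIFNRs against wild-type, where 4.79% of all tested genes were called. Likewise 0 of 10 were called in Dp16 against wild-type (4.23% of all genes) and 0 of 10 in Dp16 2xIFNRs against Dp16 (0.0171% of all genes). The estimates leaned upward against wild-type: 9 of 10 log2 folds were positive in Dp16 2xIFNRs, with a median of 0.20 beside 0.01 over all genes. In Dp16 against wild-type 9 of 10 were positive as well, with a median of 0.15 beside -0.01 over all genes. Both comparisons use the same wild-type kidneys, and leaving out 1 of these, wild-type replicate 1, gave medians of 0.12 in Dp16 2xIFNRs and 0.10 in Dp16. In Dp16 2xIFNRs against Dp16 the median was 0.02 beside 0.00. At an unadjusted p under 0.05 there were 6 markers in Dp16 2xIFNRs against wild-type (18.2% of all genes), 3 in Dp16 against wild-type (17.1%) and 1 in Dp16 2xIFNRs against Dp16 (4.71%). DESeq2 called 1 marker in Dp16 2xIFNRs against wild-type, where it called 7.33% of all genes. It called 0 in Dp16 against wild-type (7.02% of all genes) and 0 in Dp16 2xIFNRs against Dp16 (0.0228%). In 0 of 10 markers did every animal of the genotype named first lie above every animal of the second, against 1.04% of all genes in Dp16 2xIFNRs against wild-type, 1.06% in Dp16 against wild-type and 0.0341% in Dp16 2xIFNRs against Dp16.

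**Figure D2:**
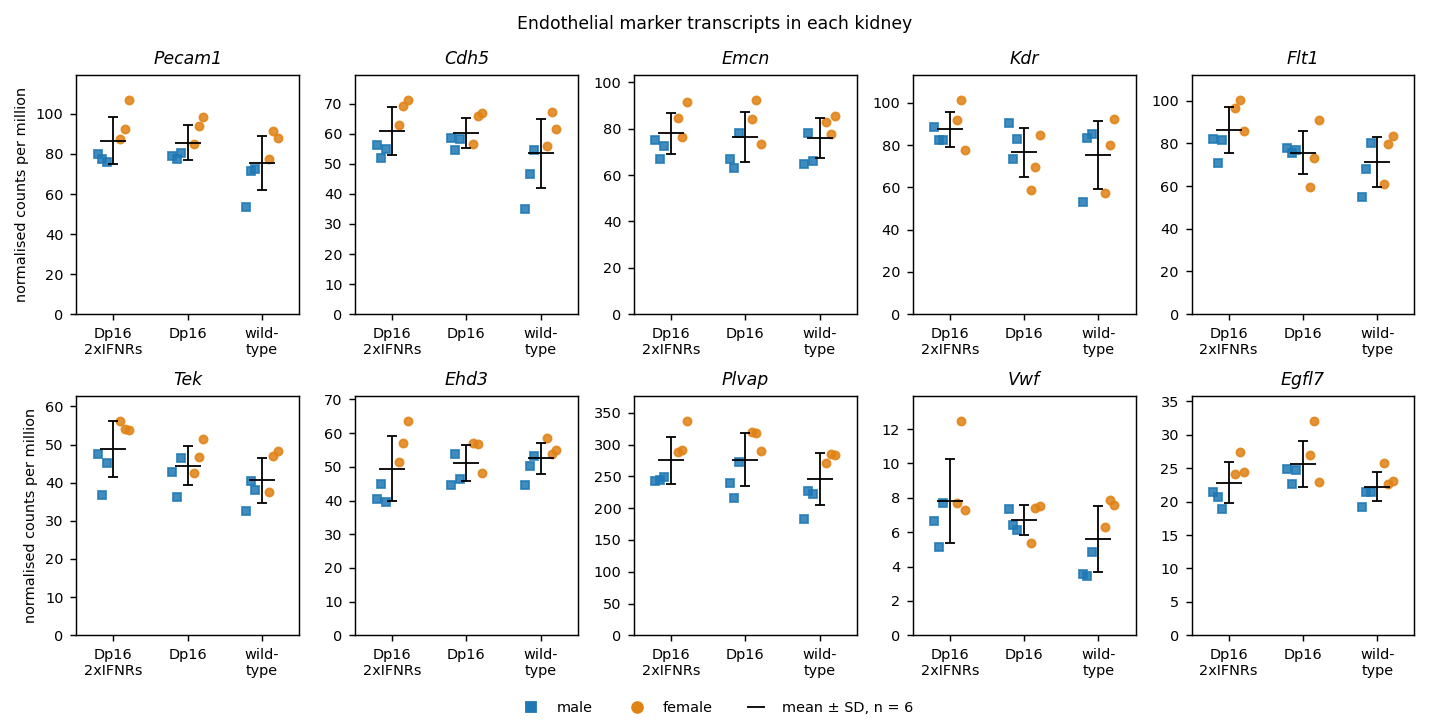
CPM (counts scaled to the TMM-normalised library size) of each marker in every kidney, by genotype, with males as squares and females as circles; the cross bar is the mean and the whisker the SD of 6 kidneys. Genotypes overlap in all 10 panels, and wild-type replicate 1, the lowest square among wild-type males for Pecam1, Cdh5, Kdr, Flt1, Tek and Plvap, is the lowest of all 18 kidneys in those 6 panels.

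Among the genes of the junctions and the cell surface, Pecam1, the adhesion molecule CD31 of endothelial contacts, had 76.1, 83.5 and 106.8 CPM (lowest, median and highest of 6) in Dp16 2xIFNRs kidneys, 77.4, 82.8 and 98.2 CPM in Dp16 kidneys and 53.7, 74.9 and 91.3 CPM in wild-type kidneys. Its log2 fold was 0.20 ± 0.07 (SE; edgeR adjusted p = 0.1339) in Dp16 2xIFNRs against wild-type and 0.19 ± 0.07 (edgeR adjusted p = 0.1763) in Dp16 against wild-type, and neither was called. The genotypes overlapped as a whole, although all 3 males of each Dp16 group lay above all 3 wild-type males, at 76.1 to 79.9 CPM in Dp16 2xIFNRs and 77.4 to 80.5 CPM in Dp16 against 53.7 to 72.5 CPM in wild-type. Cdh5, the VE-cadherin of endothelial junctions, ran alongside it, with 52.1, 59.5 and 71.2 CPM in Dp16 2xIFNRs, 54.7, 58.5 and 66.8 CPM in Dp16 and 35.0, 55.4 and 67.4 CPM in wild-type. The ranges overlapped, and the wild-type range was the widest, with replicate 1 at its lower end. The log2 fold of Cdh5 was 0.20 ± 0.09 (95% interval 0.01 to 0.38, edgeR adjusted p = 0.2468) in Dp16 2xIFNRs and 0.18 ± 0.09 (-0.003 to 0.37, edgeR adjusted p = 0.304) in Dp16, both against wild-type. Without wild-type replicate 1 the log2 folds were 0.11 for Cdh5 and 0.13 for Pecam1 in Dp16 2xIFNRs, and 0.10 for Cdh5 and 0.12 for Pecam1 in Dp16. Emcn had nearly the same values in all groups, 66.9, 75.8 and 91.7 CPM in Dp16 2xIFNRs, 63.1, 75.7 and 92.3 CPM in Dp16 and 64.6, 78.03 and 85.5 CPM in wild-type. Its log2 fold was 0.04 ± 0.07 (95% interval -0.11 to 0.19) in Dp16 2xIFNRs and 0.01 ± 0.07 (-0.14 to 0.16) in Dp16, both against wild-type.

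Of the receptors, Kdr, the main signalling receptor for VEGF-A, had 77.9, 85.7 and 101.3 CPM in Dp16 2xIFNRs, 58.9, 78.4 and 90.6 CPM in Dp16 and 53.4, 81.7 and 92.4 CPM in wild-type. The genotypes overlapped, and the lowest Dp16 2xIFNRs kidney lay above the lowest kidneys of both other groups. The log2 folds of Kdr were 0.22 ± 0.13 (edgeR adjusted p = 0.3938; 0.12 without wild-type replicate 1) in Dp16 2xIFNRs against wild-type, 0.03 ± 0.13 in Dp16 against wild-type and 0.19 ± 0.13 (edgeR adjusted p = 0.8496) in Dp16 2xIFNRs against Dp16. Flt1 had 70.6, 84.0 and 100.2 CPM in Dp16 2xIFNRs, 59.3, 76.2 and 91.0 CPM in Dp16 and 54.7, 73.8 and 83.6 CPM in wild-type, again with overlap. Its log2 fold in Dp16 2xIFNRs against wild-type was 0.27 ± 0.11 (95% interval 0.05 to 0.50, edgeR adjusted p = 0.1622). It was 0.09 ± 0.11 in Dp16 against wild-type and 0.18 ± 0.11 (edgeR adjusted p = 0.8496) in Dp16 2xIFNRs against Dp16. Gene counts do not separate the membrane form of Flt1 from its shorter soluble form. Tek, the angiopoietin receptor Tie2, had 36.8, 50.6 and 56.1 CPM in Dp16 2xIFNRs, 36.3, 44.7 and 51.5 CPM in Dp16 and 32.5, 39.2 and 48.2 CPM in wild-type. All 3 Dp16 2xIFNRs females, at 53.8 to 56.1 CPM, lay above all females of the other genotypes, at 42.6 to 51.5 CPM in Dp16 and 37.6 to 48.2 CPM in wild-type, while the males overlapped. Tek had the smallest p of the 10 in Dp16 2xIFNRs against wild-type, a log2 fold of 0.26 ± 0.08 (95% interval 0.09 to 0.44, edgeR adjusted p = 0.08115), and 0.13 ± 0.08 (edgeR adjusted p = 0.469; 0.09 without Dp16 replicate 6) in Dp16. Without Dp16 2xIFNRs replicate 3, a male, the first of these was 0.30 and was called (edgeR adjusted p = 0.03562).

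Among the genes that mark particular vessels, Ehd3, a membrane-trafficking ATPase concentrated in glomerular endothelium, had the only negative estimates against wild-type, with 39.4, 48.1 and 63.5 CPM in Dp16 2xIFNRs, 44.7, 51.1 and 57.2 CPM in Dp16 and 44.7, 53.5 and 58.4 CPM in wild-type. Its log2 fold was -0.10 ± 0.08 (95% interval -0.26 to 0.06, edgeR adjusted p = 0.5463) in Dp16 2xIFNRs and -0.04 ± 0.08 (-0.20 to 0.13) in Dp16. Both the lowest and the highest of the 18 kidneys for Ehd3 were Dp16 2xIFNRs, a male and a female. Plvap had 242.8, 268.7 and 336.8 CPM in Dp16 2xIFNRs, 216.5, 281.3 and 319.6 CPM in Dp16 and 183.4, 249.2 and 285.5 CPM in wild-type. Within females both Dp16 groups lay wholly above wild-type, at 287.9 to 336.8 CPM in Dp16 2xIFNRs and 290.6 to 319.6 CPM in Dp16 against 271.2 to 285.5 CPM in wild-type. The log2 fold of Plvap was 0.17 ± 0.06 against wild-type in both, with edgeR adjusted p = 0.1436 in Dp16 2xIFNRs and 0.145 in Dp16.

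Vwf, the clotting factor stored in endothelium of larger vessels and also made by megakaryocytes, had 5.15, 7.48 and 12.45 CPM in Dp16 2xIFNRs, 5.35, 6.88 and 7.53 CPM in Dp16 and 3.48, 5.57 and 7.86 CPM in wild-type. The highest value belonged to Dp16 2xIFNRs replicate 4, a female, and the 3 lowest to the wild-type males. The log2 fold of Vwf was the largest among the markers and the least precise, 0.51 ± 0.17 (95% interval 0.15 to 0.86, edgeR adjusted p = 0.1011) in Dp16 2xIFNRs against wild-type and 0.32 ± 0.17 (-0.04 to 0.68, edgeR adjusted p = 0.3734) in Dp16 against wild-type. DESeq2 called it in Dp16 2xIFNRs against wild-type, at a log2 fold of 0.49 (adjusted p = 0.04938). Platelet genes were low: 3 of 6 were tested, and edgeR called 0 of these (at an unadjusted p under 0.05, 0 in Dp16 2xIFNRs and 1 in Dp16, Pf4). The 3 tested genes summed to 5.49 to 6.72 CPM in Dp16 2xIFNRs, 5.46 to 7 CPM in Dp16 and 4.29 to 6.85 CPM in wild-type. Most of each sum was Itga2b, with means of 4.78, 4.63 and 4.97 CPM in that order. Pf4 had means of 0.88, 1.18 and 0.79 CPM, and Ppbp 0.56, 0.44 and 0.35 CPM. The median log2 fold of the 3 against wild-type was 0.14 in Dp16 2xIFNRs and 0.51 in Dp16. The part of megakaryocytes and platelets in the Vwf estimates was not tested. Egfl7, a secreted protein of the vessel matrix and host of a microRNA, had 18.9, 22.8 and 27.4 CPM in Dp16 2xIFNRs, 22.6, 24.8 and 32.0 CPM in Dp16 and 19.2, 22.1 and 25.7 CPM in wild-type. It was the one marker whose estimate was higher in Dp16 than in Dp16 2xIFNRs by more than 0.10, with a log2 fold of -0.17 ± 0.07 (unadjusted p = 0.0317, edgeR adjusted p = 0.8496) in Dp16 2xIFNRs against Dp16. Against wild-type Egfl7 was at 0.03 ± 0.07 in Dp16 2xIFNRs and 0.21 ± 0.07 (edgeR adjusted p = 0.1313) in Dp16. The estimate in Dp16 was 0.26 and was called without Dp16 replicate 4, a female (edgeR adjusted p = 0.03567). All 3 Dp16 males, at 22.6 to 24.9 CPM, exceeded the Dp16 2xIFNRs males at 18.9 to 21.5 CPM and the wild-type males at 19.2 to 21.5 CPM.

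Such separation within one sex is common with 3 animals against 3. In Dp16 2xIFNRs every male exceeded every wild-type male in 3 of 10 markers, Pecam1, Plvap and Vwf, against 10.3% of all genes. The same held for females in 3 of 10, Flt1, Tek and Plvap, against 8.64%. In Dp16 it held for males in 4 of 10, Pecam1, Cdh5, Vwf and Egfl7, against 9.67%, and for females in 1 of 10, Plvap, against 8.31%. The reverse order occurred in 0 of 10 markers in any of these 4 settings, against 8.88%, 6.62%, 8.22% and 6.62% of all genes. Between the Dp16 groups, every Dp16 2xIFNRs male lay below every Dp16 male in 1 of 10, Egfl7, against 3.73% of all genes, and above in 0 of 10, against 4.24%. Every Dp16 2xIFNRs female lay above every Dp16 female in 1 of 10, Tek, against 4.89%, and below in 0 of 10, against 5.55%.

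**Figure D3:**
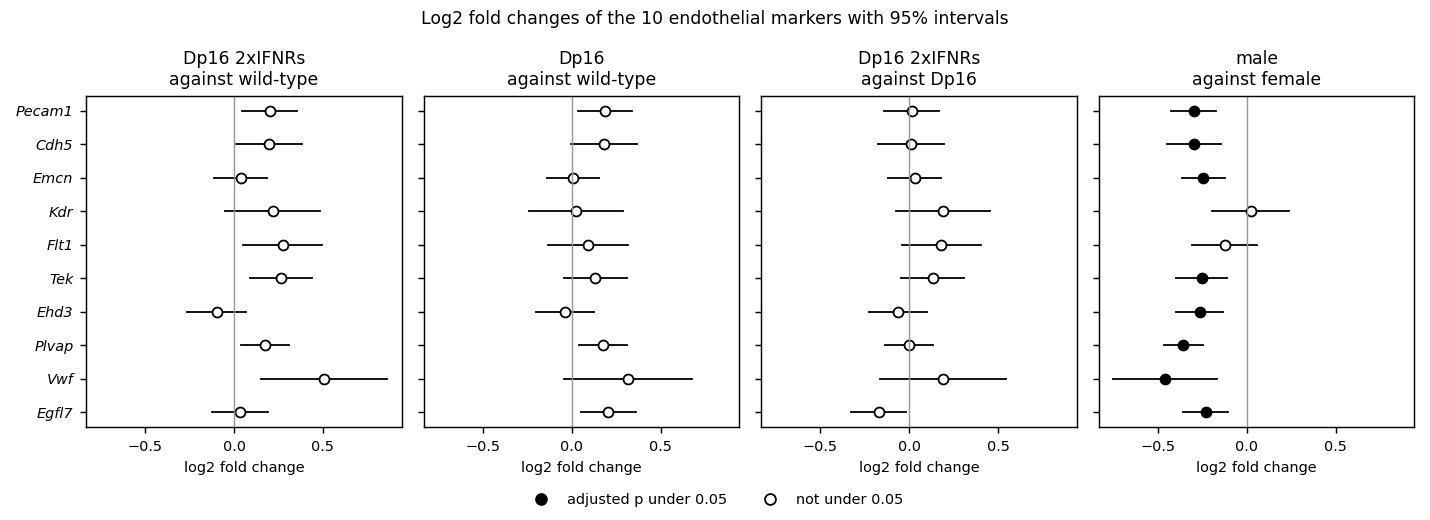
Log2 fold change of each marker (point) with its 95% interval (line) in the 3 genotype comparisons and in males against females; filled points have an edgeR adjusted p under 0.05. Genotype points are all open and mostly lie right of 0 in both panels against wild-type, while 8 of 10 points are filled and left of 0 in males against females.

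More markers passed the test by sex than by genotype. With genotype held in the fit, 8 of 10 markers were lower in males than in females and 0 were higher, beside 38.8% of all genes called in either direction, 19.7% called lower and 19% called higher. At an unadjusted p under 0.05 it was 8 of 10, beside 46.5% of all genes. The median log2 fold of the markers was -0.26 in males against females, beside -0.03 over all genes. Plvap had the smallest p of the 10, with 183.4, 240.0 and 272.1 CPM (lowest, median and highest of 9) in males and 271.2, 290.6 and 336.8 CPM in females. Of the 9 males 8 lay below the lowest female, and the log2 fold was -0.36 ± 0.05 (edgeR adjusted p = 1.89e-05). Pecam1 had 53.7, 77.4 and 80.5 CPM in males and 77.2, 91.3 and 106.8 CPM in females, a log2 fold of -0.30 ± 0.06 (edgeR adjusted p = 0.0005145). Cdh5 had 35.0, 54.7 and 58.7 CPM in males and 56.0, 66.0 and 71.2 CPM in females, likewise at -0.30 ± 0.07 (edgeR adjusted p = 0.00265). The sexes overlapped in both junction genes, with 4 of 9 males below the lowest female for Pecam1 and 6 of 9 for Cdh5.

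Emcn, at -0.24 ± 0.06, Tek, at -0.25 ± 0.07, Ehd3, at -0.27 ± 0.06, and Egfl7, at -0.23 ± 0.06, were lower in males by about the same log2 fold, with edgeR adjusted p between 0.002264 and 0.005967. The lowest, median and highest of 9 animals were for Emcn 63.1, 67.0 and 78.3 CPM in males and 73.3, 84.2 and 92.3 CPM in females. Tek had 32.5, 40.4 and 47.5 CPM in males and 37.6, 48.2 and 56.1 CPM in females. Ehd3 had 39.4, 44.9 and 53.9 CPM in males and 48.3, 56.8 and 63.5 CPM in females, and Egfl7 had 18.9, 21.5 and 24.9 CPM in males and 22.6, 24.4 and 32.0 CPM in females. The sexes overlapped in all 4, least in Egfl7, where 7 of 9 males lay below the lowest female. Vwf was lower in males by the largest estimate, -0.46 ± 0.14 (edgeR adjusted p = 0.01274), with 3.48, 6.11 and 7.69 CPM in males and 5.35, 7.53 and 12.45 CPM in females. The VEGF receptors were the exceptions. Kdr had 53.4, 83.2 and 90.6 CPM in males and 57.5, 80.2 and 101.3 CPM in females, a log2 fold of 0.02 ± 0.10 (95% interval -0.19 to 0.24, edgeR adjusted p = 0.8931). Flt1 had 54.7, 76.8 and 82.05 CPM in males and 59.3, 83.6 and 100.2 CPM in females, at -0.12 ± 0.09 (-0.31 to 0.06, edgeR adjusted p = 0.2862). On the RPKM scale Flt1 was called lower in males, at -0.24 (limma adjusted p = 0.049), where 44.4% of all genes were called in either direction. The intervals of both receptors overlap those of several called markers, and the difference between markers was not tested.

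In 0 of 10 markers did every male lie below every female, against 3.45% of all genes. Within all 3 genotypes taken one at a time, every male lay below every female in 2 of 10, Pecam1 and Plvap, against 5.77% of all genes. Male libraries had TMM factors of 0.931 to 0.991 and female ones 1.03 to 1.07, and on the RPKM scale, which divides by library totals, the median over all genes itself was -0.13 in males against females and that of the markers was -0.38.

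Many other vessel genes and genes of other kidney cells were also lower in males. Of 31 further pan-endothelial genes 22 fell in males and 0 rose, with a median log2 fold of -0.32. Lists for particular vessels went both ways: 4 of 9 glomerular endothelial genes fell and 2 rose, the lipoprotein lipase gene Lpl by 1.10 ± 0.16 and the tau gene Mapt by 0.46 ± 0.07. Mean levels by genotype were 874.8 to 938.2 CPM for Lpl and 158.8 to 184.9 CPM for Mapt, beside 49.5 to 52.5 CPM for Ehd3. Which cells of the whole kidney gave the Lpl and Mapt transcripts was not tested. Of 10 genes of the peritubular capillaries and vasa recta 6 fell and 1 rose, Esm1 by 0.33 ± 0.10, and of 9 arterial and venous genes 5 fell and 0 rose. Podocyte genes were lower in 9 of 10, mural and mesangial genes in 10 of 12 and fibroblast genes in 6 of 6, with 0 higher in each. Podocyte genes summed to 506.7 to 658.3 CPM in males and 649.8 to 824.6 CPM in females, and mural genes to 408.9 to 613.5 CPM in males and 556.9 to 811.1 CPM in females. Macrophage genes were lower in 1 of 12, and proximal tubule genes were higher in 4 and lower in 3 of 10, with summed levels of 18220 to 21260 CPM in males and 13700 to 17830 CPM in females. The part of cell composition in the sex difference of the markers was not tested.

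The effect of genotype on the markers was then compared between the sexes. The interaction of sex and genotype was called by edgeR in 0 of 10 markers, against 0.0114% of all genes, and 1 was under an unadjusted p of 0.05 (4.92% of all genes), Vwf (joint unadjusted p = 0.03855, edgeR adjusted p = 0.9294). In males Vwf had 5.15 to 7.69 CPM in Dp16 2xIFNRs and 6.11 to 7.37 CPM in Dp16 against 3.48 to 4.85 CPM in wild-type. In females it had 7.28 to 12.45 CPM in Dp16 2xIFNRs and 5.35 to 7.53 CPM in Dp16 against 6.29 to 7.86 CPM in wild-type. Its log2 fold in Dp16 against wild-type was 0.73 ± 0.18 in males alone (edgeR adjusted p = 0.072) and -0.11 ± 0.21 in females alone, a difference of 0.84 (unadjusted p = 0.01195, edgeR adjusted p = 0.6266). The median over the 10 markers for Dp16 against wild-type was 0.18 in males and 0.02 in females. For Dp16 2xIFNRs against wild-type it was 0.19 in males and 0.14 in females.

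After genotype and sex were taken out, the markers did not vary as 1 block. Over the 45 pairs the median Pearson correlation of the residual log2 CPM across 18 kidneys was 0.278, with a range from -0.285 to 0.912 and 35 pairs above 0. The closest pair was Kdr and Flt1, with r = 0.912 and Spearman's rho = 0.905 (permutation p = 1e-05 for each, the smallest that 100000 permutations can give, adjusted p = 0.000225 for r and 0.00045 for rho over 45 pairs). Without the 2 kidneys farthest from the median residual of Kdr, r was 0.869. In every pair the 2 kidneys left out were the farthest for the gene that comes earlier in the opening list. They could therefore differ from pair to pair. Tek joined them, at r = 0.780 with Kdr and 0.775 with Flt1 (permutation p adjusted over 45 pairs 0.00288 and 0.00315, rho 0.732 and 0.666), or 0.718 and 0.712 without the 2 farthest kidneys. Pecam1 and Cdh5 formed the other close pair, with r = 0.903 and rho = 0.787 (permutation p adjusted over 45 pairs 0.000225 and 0.0045), and r = 0.747 without the 2 farthest kidneys. Links between the junction genes and the receptors were lower without the 2 farthest kidneys: r was 0.473 against 0.747 in all 18 for Cdh5 and Kdr, 0.549 against 0.746 for Cdh5 and Flt1, and 0.345 against 0.670 for Pecam1 and Kdr, while Pecam1 and Flt1 were at 0.329 without the 2. Those of Vwf were 0.471 against 0.665 with Flt1, 0.400 against 0.598 with Kdr and -0.01 against 0.367 with Pecam1. Emcn followed Plvap, with r = 0.713 and rho = 0.680 (permutation p adjusted over 45 pairs 0.00546 and 0.0202), and r = 0.681 without the 2 farthest kidneys. Its correlations with the VEGF receptors were -0.04 for Kdr and -0.17 for Flt1. Ehd3 and Egfl7 had 0 pairs past an adjusted p of 0.05, and their highest correlation, with each other, was r = 0.477. In all 15 pairs passed by Pearson and 12 by Spearman, 12 of them by both. All pairs come from the same 18 libraries and share their depth and preparation, and permuting residuals is approximate. By the length that counts and RPKM imply, Kdr, Flt1, Tek, Vwf, Pecam1 and Cdh5 had 3995 to 10961 bases. Emcn, Plvap, Ehd3 and Egfl7 were shorter, at 1877 to 3659 bases. The part of transcript length in these correlations was not tested.

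**Figure D4:**
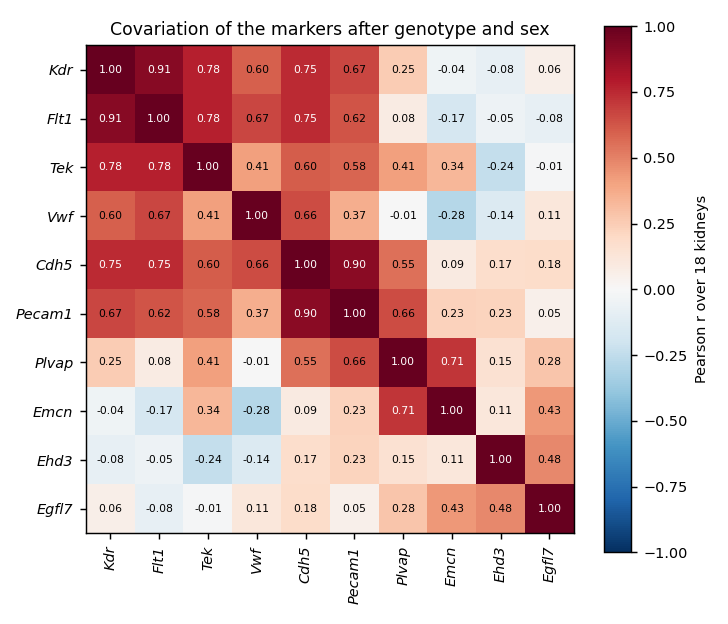
Pearson correlation of each pair of markers over 18 kidneys, from log2 CPM residuals after genotype and sex; red is positive and blue negative. The receptors Kdr, Flt1 and Tek form a red block with Cdh5, Pecam1 and, less deeply, Vwf in all 18 kidneys, whereas Emcn goes with Plvap. The genes of the red block are also the longest of the markers. Ehd3 and Egfl7 are highest with each other, at r = 0.477, which did not pass an adjusted p of 0.05.

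Some kidneys were low or high for many markers together. Wild-type replicate 1, a male, was the lowest of 18 in 6 of 10 markers, Pecam1, Cdh5, Kdr, Flt1, Tek and Plvap. Wild-type replicate 2 was the lowest female in 5 of 10, Pecam1, Cdh5, Kdr, Tek and Plvap. At the upper end, Dp16 2xIFNRs replicate 5, a female, was the highest of 18 in Pecam1, Cdh5, Ehd3 and Plvap, and Dp16 2xIFNRs replicate 4, also female, in Kdr, Flt1 and Vwf.

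The mean of the 10 markers, again after genotype and sex, was compared with 13844 other genes across the 18 kidneys, as a description. The 8 genes most like it by Pearson correlation were Tmem184b at 0.924, Synpo at 0.916, Ifi203 at 0.913, Flt4 at 0.912, Atp1b2 at 0.904, Carm1 at 0.890, Kit at 0.886 and Rhobtb3 at 0.883. Flt4 is the VEGF-C receptor of lymphatic and some capillary endothelium, and Synpo is an actin-associated protein of podocytes. Tmem184b, Ifi203, Atp1b2, Carm1, Kit and Rhobtb3 were in none of the gene lists used here, of vessels or of other cells. What these genes share with the markers was not tested. Without the 2 kidneys farthest from the median of the markers' mean, wild-type replicate 1 and Dp16 replicate 2, these correlations were 0.713 to 0.873.

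Other vessel genes were read from lists that hold none of the 10 markers. Of 31 further pan-endothelial genes, 4 rose and 0 fell in Dp16 2xIFNRs against wild-type, with a median log2 fold of 0.18, and 4 rose and 0 fell in Dp16, with a median of 0.17. The background for a rise was 3.17% of all genes in each comparison. Cd34, a sialomucin of capillary endothelium, had 32.1, 42.6 and 51.6 CPM in Dp16 2xIFNRs, 36.5, 38.6 and 48.7 CPM in Dp16 and 25.4, 33.4 and 37.1 CPM in wild-type. It rose by 0.40 ± 0.08 (edgeR adjusted p = 0.006112) in Dp16 2xIFNRs and 0.33 ± 0.08 (edgeR adjusted p = 0.02316) in Dp16, with overlapping ranges. Cd93, a lectin-like receptor of endothelium that myeloid cells also carry, rose by 0.42 ± 0.08 in Dp16 2xIFNRs and 0.45 ± 0.08 in Dp16, and Nos3, the endothelial nitric oxide synthase, by 0.45 ± 0.09 in Dp16 2xIFNRs and 0.35 ± 0.09 in Dp16. Ramp2, a subunit of the adrenomedullin receptor, rose by 0.32 ± 0.08 in Dp16 and was at 0.22 ± 0.08 (edgeR adjusted p = 0.133) in Dp16 2xIFNRs. Adgrl4, an adhesion receptor of endothelium, rose by 0.35 ± 0.08 in Dp16 2xIFNRs and was at 0.25 ± 0.08 (edgeR adjusted p = 0.09136) in Dp16. The called genes had log2 folds between 0.32 and 0.45, larger than the estimates of every marker but Vwf, while the list medians were near those of the markers.

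Genes that distinguish kidney vessels gave few calls. In glomerular endothelium 0 of 9 were called by edgeR in Dp16 2xIFNRs (0 at an unadjusted p under 0.05) and 1 rose in Dp16, Nostrin, which guides traffic of nitric oxide synthase, at 0.64 ± 0.17. In capillaries around the tubules and vasa recta 1 of 10 fell in each comparison (1.61% of all genes fell in Dp16 2xIFNRs and 1.06% in Dp16), and it was the same gene, Esm1, a secreted proteoglycan of endothelium that responds to VEGF. Esm1 had 18.4, 22.3 and 25.1 CPM in Dp16 2xIFNRs, 15.5, 19.8 and 29.4 CPM in Dp16 and 25.8, 31.4 and 46.3 CPM in wild-type. It fell by 0.58 on the log2 scale (SE 0.12, edgeR adjusted p = 0.008667) in Dp16 2xIFNRs, whose 6 kidneys lay below all 6 wild-type kidneys, and fell by 0.67 (SE 0.12, edgeR adjusted p = 0.003218) in Dp16. In arteries and veins Sema3g, a guidance ligand of arterial endothelium, rose by 0.44 ± 0.09 in Dp16 2xIFNRs and 0.39 ± 0.09 in Dp16, and Gja5, the connexin 40 of arteries, rose by 0.63 ± 0.15 in Dp16 and was at 0.51 ± 0.15 (edgeR adjusted p = 0.06044) in Dp16 2xIFNRs. No other gene of the 9 tested was called in either comparison. Of 5 genes of endothelial activation, Thbd, the thrombomodulin of the vessel surface, rose by 0.38 ± 0.09 in Dp16 2xIFNRs and 0.34 ± 0.09 in Dp16. Icam1, a leukocyte adhesion molecule, rose by 0.32 ± 0.08 in Dp16 2xIFNRs and was not called in Dp16. It had 25.5, 28.0 and 32.3 CPM in Dp16 2xIFNRs, 24.7, 27.0 and 30.5 CPM in Dp16 and 17.3, 23.0 and 25.1 CPM in wild-type.

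Of 7 lymphatic genes edgeR called 0 by genotype, with 1 at an unadjusted p under 0.05 in Dp16 2xIFNRs and 2 in Dp16, and the smallest p values in Dp16 were those of the chemokine Ccl21a, at 0.62 ± 0.18 (edgeR adjusted p = 0.05421), and the transcription factor Prox1, at -0.37 ± 0.13 (edgeR adjusted p = 0.1093). Of 16 genes of the VEGF, angiopoietin and hypoxia pathway edgeR called 0 by genotype, with 1 at an unadjusted p under 0.05 in each comparison and medians of 0.03 in Dp16 2xIFNRs and 0.01 in Dp16. Its leading members by p were the ligand Vegfd, at 0.20 ± 0.09 (edgeR adjusted p = 0.2784) in Dp16, and the coreceptor Nrp2, at 0.33 ± 0.11 (edgeR adjusted p = 0.09713) in Dp16 2xIFNRs. Vegfa, the main ligand of Kdr and Flt1, named here for that role after its values were seen, was at -0.05 ± 0.07 in Dp16 2xIFNRs and -0.08 ± 0.07 in Dp16. By sex 11 of these 16 fell in males and 0 rose.

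Endothelial genes inside the duplicated segment were read apart from the markers, which all lie elsewhere. Of 6 such genes 6 rose in Dp16 2xIFNRs and 4 in Dp16, with median log2 folds of 0.69 in Dp16 2xIFNRs and 0.61 in Dp16. The ETS factor Erg had 12.2, 15.9 and 17.2 CPM in Dp16 2xIFNRs, 13.3, 14.5 and 18.5 CPM in Dp16 and 11.2, 12.2 and 14.6 CPM in wild-type. It rose by 0.29 ± 0.08 (edgeR adjusted p = 0.03003) in Dp16 2xIFNRs and was at 0.25 ± 0.08 (edgeR adjusted p = 0.06983) in Dp16, the smallest estimates of the 6. Its relative Ets2 rose by 0.52 ± 0.07 in each. The junction gene Jam2 rose by 0.83 ± 0.11 in Dp16 2xIFNRs and 0.76 ± 0.11 in Dp16, Cyyr1 by 0.92 ± 0.11 in Dp16 2xIFNRs and 0.83 ± 0.11 in Dp16, and the protease Adamts1 by 0.68 ± 0.16 in Dp16 2xIFNRs and 0.61 ± 0.16 in Dp16. Rcan1, an inhibitor of calcineurin, rose by 0.70 ± 0.19 in Dp16 2xIFNRs and was not called in Dp16. It had 113.3, 145.1 and 197 CPM in Dp16 2xIFNRs, 99.7, 122.8 and 243.7 CPM in Dp16 and 63.2, 91.8 and 119.7 CPM in wild-type.

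Genes of neighbouring cells were read beside the markers. Mural and mesangial genes rose in 1 of 12 in Dp16 2xIFNRs, the renin gene Ren1, and in 3 of 12 in Dp16, Rgs5, Mcam and Ren1, with medians of 0.20 in Dp16 2xIFNRs and 0.28 in Dp16. They summed to 435.1 to 714.6 CPM in Dp16 2xIFNRs, 532.6 to 811.1 CPM in Dp16 and 408.9 to 619.6 CPM in wild-type. Podocyte genes had median log2 folds of 0.05 in Dp16 2xIFNRs and -0.02 in Dp16, and summed to 574.8 to 824.6 CPM in Dp16 2xIFNRs and 601.8 to 751.5 CPM in Dp16 against 506.7 to 751.3 CPM in wild-type. Fibroblast genes were called in 0 of 6 in Dp16 2xIFNRs (3 at an unadjusted p under 0.05) and 1 in Dp16, Col3a1. Macrophage genes rose in 9 of 12 in each comparison and summed to 299.6 to 399.9 CPM in Dp16 2xIFNRs and 317.9 to 401.4 CPM in Dp16 against 198.7 to 286.9 CPM in wild-type. Proximal tubule genes fell in 2 of 10 in each, Slc22a8 and Slc13a3, and red cell genes were called in 0 of 5, also at an unadjusted p under 0.05. Of these lists edgeR called 0 genes in Dp16 2xIFNRs against Dp16, with at most 1 in any list at an unadjusted p under 0.05. The part of these cells in the estimates of the markers was not tested.

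**Figure D5:**
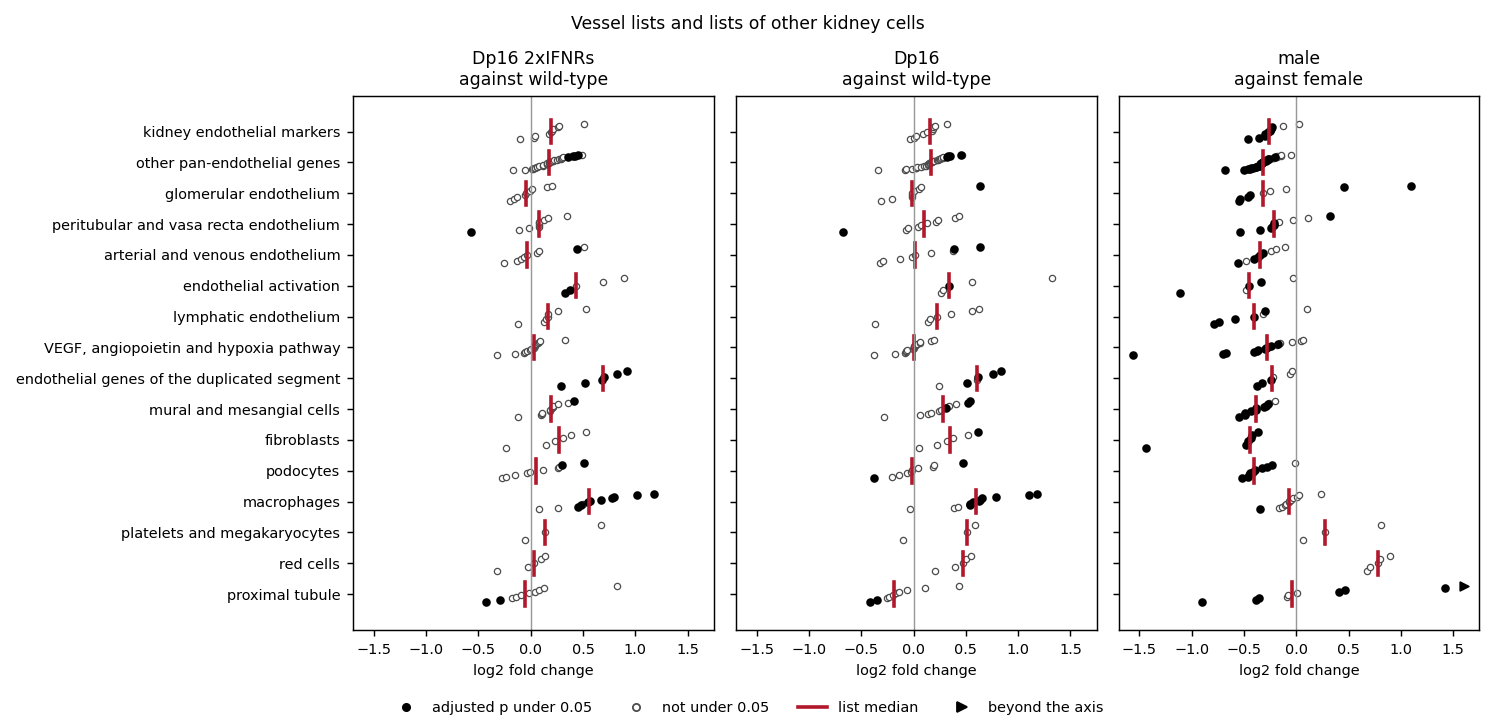
Log2 fold changes of the 10 markers, of other vessel lists and of lists for other kidney cells, 1 point per tested gene and a bar at each list median, with filled points at an edgeR adjusted p under 0.05; 1 proximal tubule gene in males against females lies beyond the axis. The markers' genotype points cluster a little right of 0 without a filled point, those of the duplicated segment and of macrophages lie further right, and most vessel, mural, fibroblast and podocyte points lie left of 0 in males.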

How the data were processed

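Whole kidney polyA RNA of 18 mice was measured, with 1 library per animal. TRIzol extraction, strand-specific libraries and paired reads are recorded per the labels' protocols. Build GRCm38 is named per the submitters' processing notes, together with HTSeq 0.6.1, SAMtools 1.5, HISAT2 2.1.0, FastQC 0.11.5 and bcl2fastq. Whether counting used strand is not given in the sources used here. The authors deposited raw counts per gene, with no normalization, and RPKM values for the same 55385 genes. How the RPKM values were made is not given in the sources used here, but count divided by RPKM gave 1 length per gene, equal across libraries within 0.1% in 14767 of 14767 genes checked, with the library total as denominator. No libraries were duplicates (lowest chi-square per degree of freedom 18.56).

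Counts were tested with edgeR 4.0.16 (R 4.3.3) by the quasi-likelihood test in 1 fit of 18 libraries with group and sex as terms, TMM normalization and a filter (minimum count 10, minimum total 15) that left 17575 genes. Two-sided p values were adjusted over all tested genes by Benjamini-Hochberg, with a threshold of 0.05. The SE is the size of the log2 fold over the square root of F, an approximation, and 95% intervals come from it. The males-only and females-only fits used the libraries of that sex. CPM values are counts scaled to library totals after TMM, and residuals used log2 CPM with a prior count of 2. P values weigh a difference against the spread between animals, and counts limit precision little except for Vwf. The steps were tested on simulated counts.

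The markers and the 15 other gene lists were chosen with earlier results of these data known. Named genes were all 10 markers, the called genes of each other list or otherwise the 2 of smallest p in Dp16 against wild-type, and the 8 genes most like the markers' mean among genes whose average log2 CPM was 0 or more. Gene positions came from GENCODE M21 and promoters from RefSeq, both on GRCm38. Alternatives were DESeq2 1.42.0, RLE size factors, no filter, a minimum average log2 CPM of 1, a fit without sex, a fit with age, the sample number as a block, 2 groups alone, limma-voom (limma 3.58.1) with the last number of the description as a random block (estimated correlation 0.0778), limma-trend on log2(RPKM + 0.1), 1 sex alone and each library left out. Single podocyte genes by genotype are not reported here.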

Additional observations from a re-analysis of the deposited data

How the results depend on the processing

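No marker changed direction while called in any alternative. The count of markers called in Dp16 against wild-type was 0 under every setting but one: it ranged from 0 to 1 with each library left out, the 1 being Egfl7 without Dp16 replicate 4 (log2 fold 0.26, edgeR adjusted p = 0.03567). That fit called 4.44% of all genes. In Dp16 2xIFNRs against wild-type DESeq2 called 1, Vwf, beside 7.33% of all genes. Leaving out libraries gave 0 to 1, the 1 being Tek without Dp16 2xIFNRs replicate 3 (log2 fold 0.30, edgeR adjusted p = 0.03562), beside 4.26% of all genes. In Dp16 2xIFNRs against Dp16 the count was 0 throughout. The markers' median log2 fold in Dp16 against wild-type was 0.018 in females alone and 0.10 to 0.17 with each library left out, lowest without wild-type replicate 1. In Dp16 2xIFNRs against wild-type it was 0.12 to 0.23, again lowest without wild-type replicate 1, and in Dp16 2xIFNRs against Dp16 -0.001 to 0.05. In males against females it was -0.38 from RPKM and -0.28 to -0.23 with libraries left out. The calls by sex were 8 with each library left out, beside 35.5% to 37.9% of all genes. They were 9 from RPKM, which added Flt1 (-0.24, limma adjusted p = 0.049), beside 44.4% of all genes. With the sample number as a replicate block they were 7, beside 31.3% of all genes, and Ehd3 was lost (-0.18, edgeR adjusted p = 0.07969). With the replicate block 0 markers were called in each of the 3 genotype comparisons, and median log2 folds were 0.15, 0.20 and 0.02 for Dp16 against wild-type, Dp16 2xIFNRs against wild-type and Dp16 2xIFNRs against Dp16. In the same order it called 5.18%, 5.38% and 0.0171% of all genes. Deviations of same-numbered animals correlated between -0.419 and 0.534, positive wherever both animals were of the same sex and negative otherwise. Since these correlations followed sex, they could not tell whether sample numbers pair the animals. Over all genes the calls in Dp16 against wild-type numbered 744 in the fit reported, 1232 with DESeq2, 190 without the sex covariate, 453 with the 2 groups alone, 318 in males alone and 33 in females alone. In Dp16 2xIFNRs against wild-type they numbered 841 as reported, 1287 with DESeq2, 234 without the sex covariate, 343 in males alone and 14 in females alone. With 6 animals a group the SE of a marker's log2 fold between genotypes was 0.06 to 0.17, and differences of that size could not be told from the spread between animals. The cause of these changes was not tested.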
